A study of Mus musculus with 8 samples.

Results

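The collagen genes of the mouse were read in bulk RNA-seq libraries of dorsal root ganglia (DRG), the paired swellings of the spinal nerves in which somatosensory neurons have their cell bodies. They were every gene whose symbol is Col, a number, the letter a and a number, which gave 44 of the 55414 gene IDs in the count files. Of these 44 collagens, 43 passed the filter on low counts and were tested, and the untested one was Col17a1. The 8 libraries came from E18.5 embryos in 2 groups of 4. AD1 OE embryos carried AdvillinCre/+ and Rosa26Dach1/+, and Control embryos carried Advillin+/+ and Rosa26Dach1/+. The Rosa26 allele places Dach1, followed by IRES-EGFP, behind a stop cassette flanked by lox sites, so both groups carried one copy of it and AD1 OE alone had the recombinase that removes the stop.

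Some features limit these groups as models. Cre stands at the Advillin locus, which is active in somatosensory neurons once they have left the cell cycle, so the glia, fibroblasts, vessels and covering layers of the ganglion were not targeted. AD1 OE embryos also differ from Control at one Advillin allele, the Rosa26Dach1 line was kept on a mixed C57Bl/6J and CD1 background, and AD1 OE pups die around birth. The labels call the material neurons and glia and do not say whether the 4 libraries of a group came from separate embryos or litters, so p-values measure only the spread between these libraries. In a bulk sample, a lower level from fewer cells of a type and one from less RNA per cell cannot be told apart.

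Collagens are extracellular proteins built from chains that wind around each other, and winding needs the smallest amino acid, glycine, at the first place of each repeated triplet. Fibrillar collagens form the banded fibrils of connective tissue, type IV collagens form the sheet of basement membranes, and the other classes link, cap or anchor these structures. In peripheral ganglia and nerves, fibroblasts, perineurial cells and Schwann cells are known sources of fibrillar collagen, glia and vessels are wrapped in type IV sheets, and a few collagens remain as membrane proteins of neurons.

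The repeat is visible in the coding sequence of the genes that carry the results. Below are exons of the most abundant fibrillar chains (Col1a1 and Col3a1), of the leading basement membrane chain (Col4a1) and of the collagens called different between the groups (Col5a3, Col6a3 and Col25a1). Each is the first exon that lies wholly inside the longest unbroken run of glycine-first triplets, is printed 5′ to 3′ on the coding strand, and has the GG of each glycine codon in capitals. The sequences and positions come from GENCODE M21 on build GRCm38, whereas the counts were made on GRCm39.
Col1a1, exon 7, chr11:94939697-94939741, plus strand: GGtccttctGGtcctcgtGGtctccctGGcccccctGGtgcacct
Col3a1, exon 6, chr1:45325360-45325413, plus strand: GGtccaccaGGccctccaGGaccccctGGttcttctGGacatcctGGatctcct
Col4a1, exon 3, chr8:11247006-11247095, minus strand: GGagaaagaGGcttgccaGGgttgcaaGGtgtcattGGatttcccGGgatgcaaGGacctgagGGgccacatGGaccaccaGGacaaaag
Col5a3, exon 15, chr9:20801068-20801121, minus strand: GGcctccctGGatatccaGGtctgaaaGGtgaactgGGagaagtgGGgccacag
Col6a3, exon 23, chr1:90791924-90791977, minus strand: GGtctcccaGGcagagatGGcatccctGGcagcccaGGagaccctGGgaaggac
Col25a1, exon 9, chr3:130476369-130476476, plus strand: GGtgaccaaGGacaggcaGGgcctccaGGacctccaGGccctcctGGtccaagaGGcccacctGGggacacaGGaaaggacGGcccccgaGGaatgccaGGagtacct

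The unbroken run was longest in the fibrillar chains and in 3 of the chains known from cartilage, Col2a1, Col11a1 and Col11a2, which had 338 or 339 triplets. In Col1a1 the longest run held 338 triplets and in Col3a1 344, and 21 and 24 of the exons wholly inside it were 54 bp long. Col5a3 had a run of 337 triplets with 31 such exons, whereas Col24a1 and Col27a1, also counted as fibrillar, had runs of 216 and 217. The type IV chains were broken up: Col4a1 had a longest run of 40 triplets and 22 breaks between runs of at least 3 triplets, and Col4a4 had 26 breaks. Col6a3 and Col25a1 had longest runs of 45 and 40 triplets, with 2 and 5 breaks, so the runs of the type IV, type VI and membrane-bound chains overlapped in length.

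**Figure D1:**
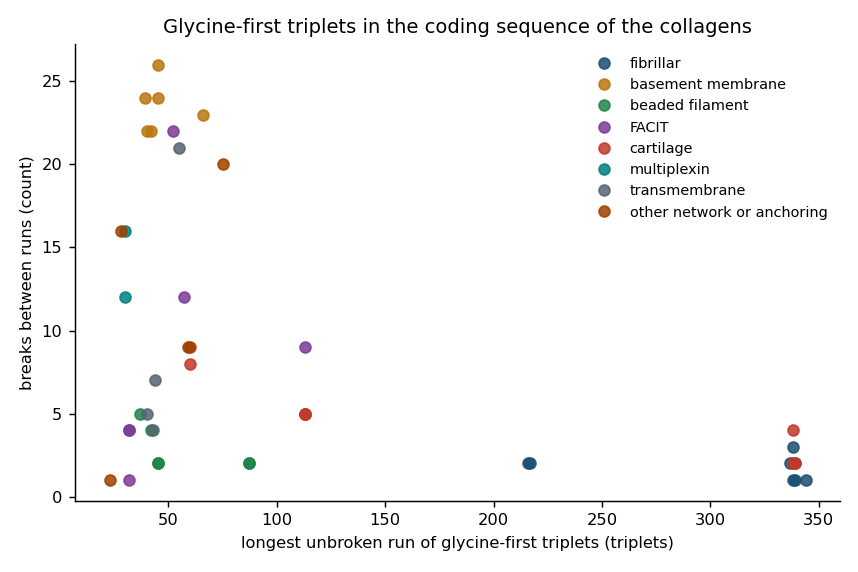
Longest unbroken run of glycine-first triplets (x axis, triplets) against the number of breaks between runs (y axis, count) in the longest coding sequence of each of the 44 collagens, 1 point a gene, coloured by class; some points coincide. The 8 fibrillar chains lie at the right with runs of 216 to 344 triplets, together with 3 of the 7 cartilage chains, and the 6 type IV chains at the upper left with 22 to 26 breaks.

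Library depth ranged from 22339059 to 44025625 counts, and collagens took between 0.911% (Control 2) and 1.17% (AD1 OE 3) of them. Dach1 was at 102, 91.5, 98.3 and 91.6 counts per 1000000 (CPM, scaled to library size) in AD1 OE and at 30.2, 33.0, 33.6 and 33.7 CPM in Control, and Avil, the gene of the Cre allele, at 460.1, 449.6, 467 and 478 CPM against 840.4, 919, 906 and 902 CPM, so both followed the labels. The groups were unequal in sex: Xist was between 0.936 and 2.97 CPM in AD1 OE 1, 2 and 4 and in Control 4, and between 953 and 1119 CPM in the other 4 libraries. The defining genes of sensory neurons were high, their 6 markers summing to between 6608 and 7324 CPM, and the 7 glial markers summed to between 988 and 1244 CPM, with ranges that overlapped between the groups. Genes of tissues next to the ganglion were present too and uneven. The sum of 6 bone markers was 136, 126 and 92.0 CPM in AD1 OE 3, AD1 OE 4 and Control 4 and between 43.8 and 56.5 CPM elsewhere, and that of 7 skeletal muscle markers ran from 122 CPM in AD1 OE 4 to 622 CPM in AD1 OE 3.

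AD1 OE and Control were compared to ask which collagens of the ganglion differ once Dach1 is broadly expressed in its neurons late in development. The paper reports that Dach1 was at first restricted normally in AD1 OE and came back in all somatosensory neurons later. Col25a1 and Col5a3 fell and Col6a3 rose in AD1 OE at the study's thresholds, an adjusted p under 0.005 with an absolute log2 fold change over 0.25. The paper analysed its counts with DESeq2, whereas the thresholds were applied here to edgeR results. The called collagens were 3 of 43 tested, or 6.98%, beside 2.57% of all 17721 tested genes. In the lower direction the 2 collagens were 4.65% beside 1.78% of all genes, and in the higher direction the 1 collagen was 2.33% beside 0.784%. Averaged over all libraries, 32 collagens reached 10 CPM, and the widest log2 fold change in them was the -0.76 of Col25a1, while 9 of the 43 tested collagens went past 0.25 in either direction.

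Most other collagens sat slightly above Control without passing the test. The log2 fold change was positive for 32 of 43 collagens, or 74.4%, beside 50.5% of all tested genes, and its median was 0.11 against 0.00 over all tested genes. An unadjusted p under 0.05 with a higher level in AD1 OE was seen for 15 collagens, or 34.9%, beside 8.28% of all genes, and with a lower level for 4, or 9.30%, beside 10.3%. Of the 43 collagens, 7 had an adjusted p under 0.05 whatever their fold, or 16.3%, beside 6.55% of all genes, with 4 higher (9.30%, beside 2.42%) and 3 lower (6.98%, beside 4.14%, edgeR quasi-likelihood test with Benjamini-Hochberg adjustment). The collagens were measured in the same 8 libraries, so these counts are not made of independent results. AD1 OE 3 had the highest level of all 8 libraries for 19 of the 44 collagens and the lowest for 0. No share over all tested genes stands beside these 2 counts, so they cannot be read as a trait of collagens. Without AD1 OE 3 the positive count was again 32 of 43 and the median 0.11. Without the 3 libraries highest in bone markers it was 34 of 44, with a median of 0.16, and with sex in the fit it was 35 of 43, with a median of 0.15.

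**Figure D2:**
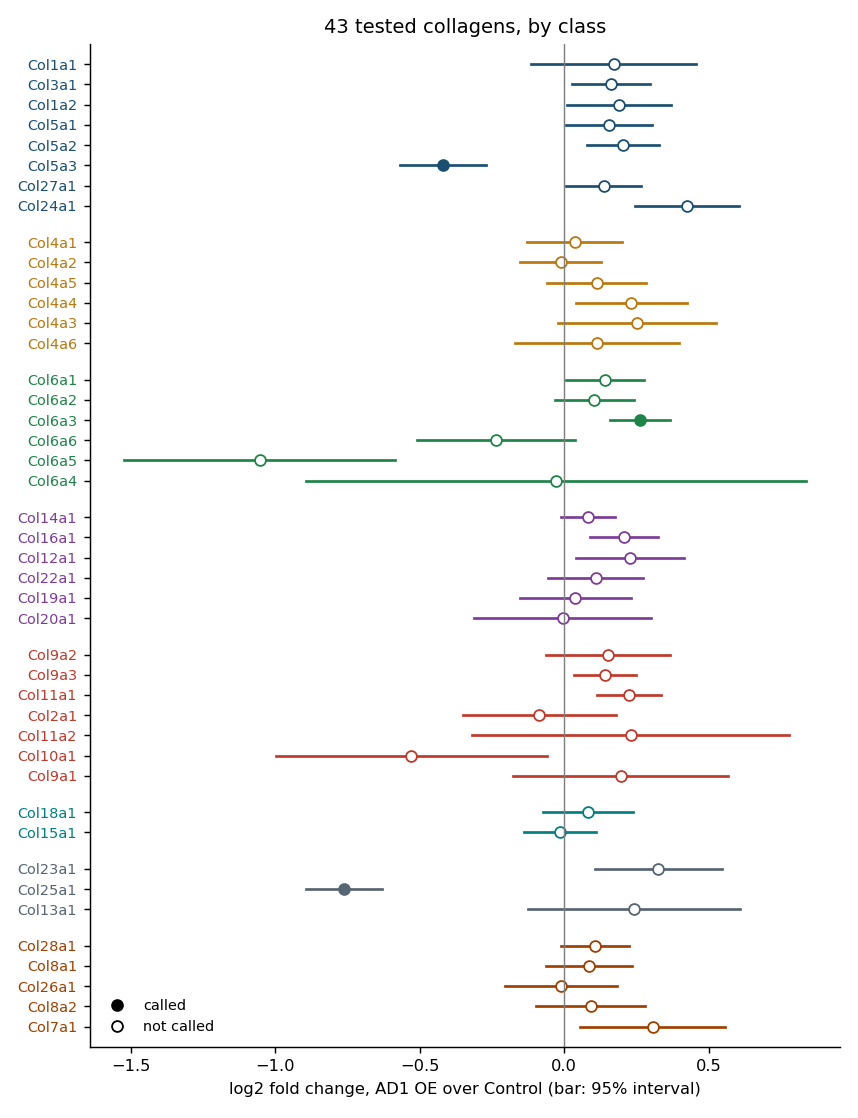
Log2 fold change of AD1 OE over Control (x axis) with its 95% interval (bars) for the 43 tested collagens, grouped and coloured by class, with filled points for the 3 called. Col25a1 at -0.76 and Col5a3 at -0.42 lie to the left of 0 and Col6a3 at 0.26 to the right, while 32 of 43 points lie to the right.

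The groups did not overlap for the 3 called collagens, so each had to keep its side within each sex. The values by sex are therefore a description and say nothing further about sex. Each sex held only 1 library of one of the groups, and no test was made within a sex. Among the 4 libraries with Xist at most 2.97 CPM, Col25a1 measured 13.5 to 13.9 CPM for AD1 OE against 23.2 CPM for Control, Col5a3 at 82.6 to 86.3 against 119.7 CPM and Col6a3 at 257 to 281 against 238 CPM. Among the other 4, Col25a1 measured 15.0 CPM for AD1 OE against 22.7 to 25.5 CPM for Control, Col5a3 at 104 against 111 to 124 CPM and Col6a3 at 285 against 214 to 229 CPM.

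Col25a1 (ENSMUSG00000058897) encodes a membrane-bound collagen of neurons, also found in the amyloid plaques of Alzheimer disease, and is required for motor axons to innervate muscle. Its levels were 13.9, 13.5, 15.0 and 13.7 CPM in AD1 OE and at 22.7, 25.5, 23.5 and 23.2 CPM in Control. The groups lay far apart, with the highest AD1 OE library well under the lowest Control library. The mean was 14.0 ± 0.685 CPM (SD, n = 4) against 23.7 ± 1.25 CPM (SD, n = 4), which is 59.0% of Control and a log2 fold change of -0.76 ± 0.06 (SE, edgeR adjusted p = 1.28e-05). Between 302 and 820 reads per library lay behind these values. Col25a1 was the one collagen called in every alternative fit, with a log2 fold change between -0.80 and -0.72 and an adjusted p between 2.13e-22 and 4.13e-04 by edgeR, limma or DESeq2. With sex in the fit the log2 fold change was -0.72. The sum of the 6 sensory neuron markers was 6940, 6608, 7324 and 6778 CPM in AD1 OE and 7077, 7270, 7056 and 7106 CPM in Control. The groups overlapped only through AD1 OE 3, and the part of neuron content in the level of Col25a1 was not tested.

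The other membrane-bound collagens were Col23a1, Col13a1 and Col17a1. Col23a1, a cell-surface collagen that binds integrins, was the highest of this class per kb and measured 51.6, 43.2, 40.6 and 35.5 CPM in AD1 OE and at 34.5, 36.4, 30.0 and 35.7 CPM in Control. AD1 OE 1 was highest and AD1 OE 4 lay inside the Control range, and the log2 fold change of 0.33 ± 0.10 (SE) did not pass (edgeR adjusted p = 0.0885). Col13a1, known from the neuromuscular junction, ranged from 4.00 to 8.26 CPM with overlapping groups, and Col17a1, a collagen of epithelial attachment plaques, had 5 to 49 reads per library.

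Fibrillar collagens made up most of the collagen signal. With each gene's CPM divided by the length of its annotated exons in kb, the only scale on which genes are compared here, the 8 fibrillar chains held 53.8% ± 2.07 (SD, n = 8) of the collagen level, and Col1a1, Col3a1 and Col1a2 alone held 46.4%. This class leaves out Col2a1, Col11a1 and Col11a2, which are counted here with cartilage. Col1a1 and Col1a2, the chains of type I collagen, stood at 228 and 138 CPM per kb, and Col3a1, which forms type III collagen of soft tissue, at 222 CPM per kb. The order of the first 3 depended on the length used: by the longest annotated transcript it was Col3a1, Col1a2 and Col1a1.

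**Figure D3:**
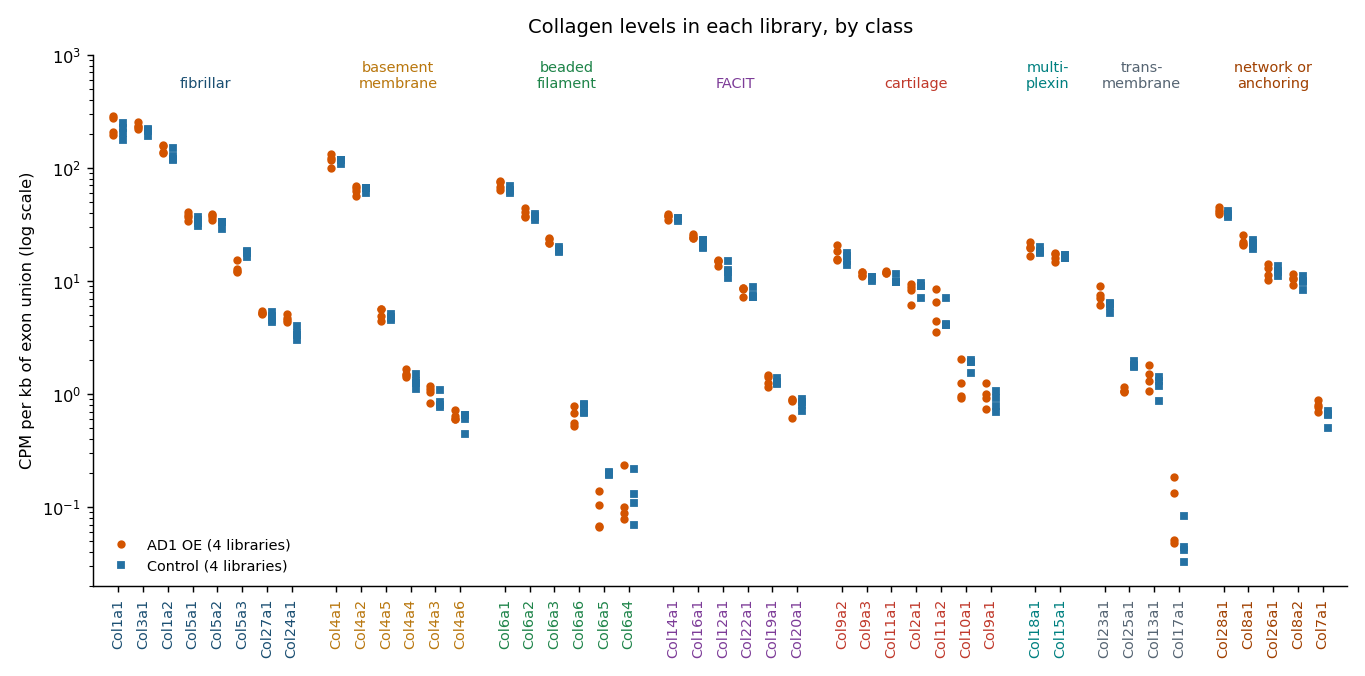
Level of each of the 44 collagens in CPM per kb of annotated exon (y axis, log scale), ordered by level within each class, with 4 AD1 OE libraries (circles) and 4 Control libraries (squares) a gene. The levels run from 228 CPM per kb on average for Col1a1 to 0.0776 for Col17a1, and the AD1 OE points lie under the Control points for Col5a3, Col6a5 and Col25a1.

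Col3a1 was at 2299, 2521, 2254 and 2147 CPM in AD1 OE and at 2131, 1889, 2148 and 2071 CPM in Control. AD1 OE 4 fell inside the Control range, and the log2 fold change of 0.16 ± 0.06 (SE) was not called (edgeR adjusted p = 0.174). Col1a1 was at 1373, 1291, 1874 and 1815 CPM in AD1 OE and at 1477, 1166, 1348 and 1651 CPM in Control. Its 3 highest libraries were AD1 OE 3, AD1 OE 4 and Control 4, the same 3 in which bone markers were highest. The log2 fold change of Col1a1 was 0.17 ± 0.13 (SE, edgeR adjusted p = 0.536) and became 0.01 without those 3 libraries, while that of its partner Col1a2 went from 0.19 to 0.17. The part of bone RNA in the level of Col1a1 was not tested. Fibroblast and meningeal markers, a list of 10 genes with 0 called, summed to between 775 and 875 CPM in AD1 OE and between 772 and 869 CPM in Control. Of these 10, 6 had positive log2 fold changes, and the median of 0.12 was close to the 0.11 of the collagens. Pdgfra, a growth factor receptor of fibroblasts, had 0.23 with AD1 OE higher and no overlap (edgeR adjusted p = 0.0232), and Dcn, the most abundant of the list, had -0.15. Their part in the collagen levels was not tested.

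Col5a3 (ENSMUSG00000004098) stood against the other fibrillar chains. It encodes a minor chain of type V collagen, a fibril-forming collagen that starts and limits fibril growth, and is known in peripheral nerve as a product of Schwann cells. Its levels were 86.3, 82.6, 104 and 83.6 CPM in AD1 OE and at 124, 111, 122 and 119.7 CPM in Control. The groups did not overlap, AD1 OE 3 being the closest to Control. The mean was 89.2 ± 10.2 CPM against 119 ± 5.79 CPM (SD, n = 4 each), 74.8% of Control, with a log2 fold change of -0.42 ± 0.07 (SE, edgeR adjusted p = 0.00254). The call was lost with sex in the fit (log2 fold change -0.34, edgeR adjusted p = 0.0107) and without any one of AD1 OE 1, 2 or 4 or Control 1, 3 or 4, where the adjusted p lay between 0.00796 and 0.0120. Without the 3 libraries highest in bone markers it was -0.49 (edgeR adjusted p = 0.00173). Of the 7 Schwann and satellite glia markers 0 were called, 4 had positive log2 fold changes and the median was 0.00, with sums of 988 to 1239 CPM in AD1 OE and 1030 to 1244 CPM in Control. Fabp7, a fatty acid binding protein of satellite glia, had a log2 fold change of -0.26 with AD1 OE lower and no overlap (edgeR adjusted p = 0.101), and S100b had -0.14 with overlap (adjusted p = 0.131). The part of the glial markers in the level of Col5a3 was not tested.

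The other type V chains went the other way by less. Col5a2 was at 351, 366, 378 and 334 CPM in AD1 OE and at 318, 278, 322 and 322 CPM in Control, groups that did not overlap, with a log2 fold change of 0.20 ± 0.06 (SE, edgeR adjusted p = 0.0564). Col5a1 had a log2 fold change of 0.16 with overlapping groups. The ratio of Col5a3 to Col5a2 per kb was therefore 0.351 ± 0.029 in AD1 OE and 0.543 ± 0.018 in Control (SD, n = 4 each), without overlap, whereas the ratio of Col5a1 to Col5a2 was 1.01 ± 0.043 and 1.04 ± 0.062, with overlap. These ratios were looked at with the Col5a3 result known and are a description of it on another scale.

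Col24a1, a fibrillar collagen of developing bone and cornea, came close to the threshold in the edgeR fit. Its levels were 34.6, 33.2, 35.8 and 38.8 CPM in AD1 OE and at 22.9, 25.6, 26.7 and 30.6 CPM in Control. The groups did not overlap, and Control 4 was the Control library nearest to AD1 OE. The log2 fold change was 0.43 ± 0.08 (SE, edgeR adjusted p = 0.00809), and 0.44 without the 3 libraries highest in bone markers (edgeR adjusted p = 0.00937). It passed the thresholds with DESeq2 and without the filter on low counts, and its log2 fold change with sex in the fit was 0.36 (edgeR adjusted p = 0.0359). Col27a1, known from cartilage, had a log2 fold change of 0.14 with overlapping groups. Col24a1, Col1a2, Col5a2 and the other uncalled collagens with values in each library beyond the highest 2 of a class were picked out after their values were seen.

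**Figure D4:**
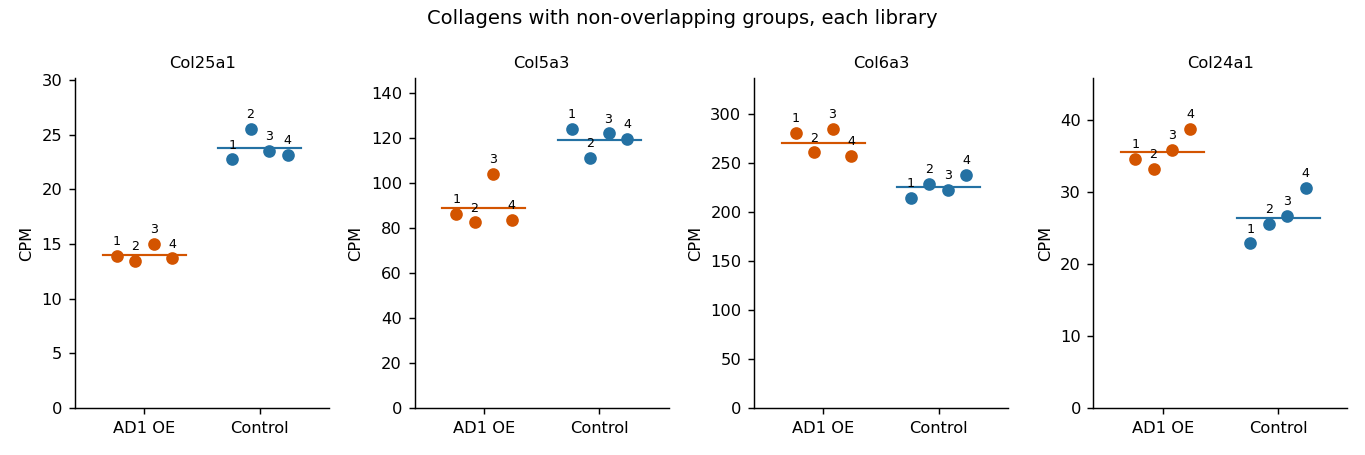
CPM (y axis, from 0) of Col25a1, Col5a3, Col6a3 and Col24a1 in each of the 4 AD1 OE and 4 Control libraries, with the replicate number above each point and the group mean as a line. In all 4 panels the groups do not overlap, Col25a1 and Col5a3 being lower and Col6a3 and Col24a1 higher in AD1 OE.

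Type VI collagens form beaded filaments around cells and next to basement membranes, from Col6a1 and Col6a2 joined by a further chain such as Col6a3. The class held 10.05% ± 0.442 (SD, n = 8) of the collagen level per kb. Col6a1 was at 326, 296, 333 and 279 CPM in AD1 OE and at 274, 278, 264 and 303 CPM in Control, and Col6a2 at 342, 306, 371 and 313 CPM against 310.4, 308, 291 and 328 CPM. For both genes AD1 OE 2 and AD1 OE 4 lay inside the Control range, and the log2 fold changes of 0.14 and 0.11 were not called.

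Col6a3 (ENSMUSG00000048126) rose. It was at 281, 261, 285 and 257 CPM in AD1 OE and at 214, 229, 223 and 238 CPM in Control, with all 4 AD1 OE libraries above all 4 Control libraries. The mean was 271 ± 14.0 CPM against 226 ± 10.2 CPM (SD, n = 4 each), with a log2 fold change of 0.26 ± 0.05 (SE, edgeR adjusted p = 0.00494). Both thresholds were passed by little: the call was lost with sex in the fit (log2 fold change 0.26, edgeR adjusted p = 0.0183), without the 3 libraries highest in bone markers (0.30, adjusted p = 0.0156) and without any one library other than AD1 OE 4, with log2 fold changes from 0.24 to 0.29. The ratio of Col6a3 to Col6a2 per kb was 0.568 ± 0.024 in AD1 OE and 0.509 ± 0.022 in Control (SD, n = 4 each). The groups only just missed overlap, with AD1 OE 3 at 0.536 and Control 3 at 0.532. This ratio was looked at with the Col6a3 result known and is a description of it on another scale.

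The 3 chains that can take the place of Col6a3, which are Col6a4, Col6a5 and Col6a6, were low. Col6a6 ranged from 4.81 to 7.56 CPM and Col6a4 from 0.593 to 2.01 CPM, each with overlapping groups. Col6a5 was at 0.995, 0.624, 1.30 and 0.648 CPM in AD1 OE and at 1.80, 1.90, 1.85 and 1.95 CPM in Control. These groups did not overlap, and with a log2 fold change of -1.05 ± 0.22 (SE) Col6a5 was not called by edgeR (adjusted p = 0.0111) on 14 to 69 reads per library. DESeq2, the fit without a filter and the fit without AD1 OE 3 called it, the last with a log2 fold change of -1.25 (edgeR adjusted p = 0.00290).

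Type IV collagens, the sheet of the basement membrane around glia, perineurium and vessels, held 14.9% ± 1.15 (SD, n = 8) of the collagen level, almost all of it in the ubiquitous pair Col4a1 and Col4a2. Col4a1 was at 919.7, 870.2, 996 and 751 CPM in AD1 OE and at 880.3, 885, 807 and 873 CPM in Control, and Col4a2 at 442, 417, 463 and 372 CPM against 436, 436, 398 and 438 CPM. AD1 OE 3 was the highest and AD1 OE 4 the lowest of the 8 libraries for both genes, so AD1 OE spanned the whole Control range. The log2 fold changes were 0.04 for Col4a1 and -0.01 for Col4a2, with 95% intervals of -0.13 to 0.20 and -0.15 to 0.13. These head-to-head genes kept their proportion: Col4a1 per kb was 1.85 ± 0.048 times Col4a2 in AD1 OE and 1.79 ± 0.015 times in Control (SD, n = 4 each).

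The chains of specialised basement membranes were scarcer. Col4a5 stood at 4.98 CPM per kb, Col4a4 at 1.40, Col4a3 at 0.963 and Col4a6 at 0.616, against 117 for Col4a1. Their log2 fold changes lay between 0.11 and 0.25, 0 were called, and the groups overlapped for each. Summed over the 6 type IV genes, the level was 1374 ± 144 CPM against 1348 ± 53.6 CPM in Control (SD, n = 4 each), again overlapping. Endothelial markers, a list of 6 genes with 0 called, summed to between 268 and 319 CPM in AD1 OE, where AD1 OE 3 was highest and AD1 OE 4 lowest as for Col4a1, and their part in the type IV levels was not tested.

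Col18a1 and Col15a1, the collagens with sugar chains that sit at basement membrane zones and whose ends are cut off as endostatin and a related peptide, held 2.80% of the collagen level. Col18a1 was at 141, 137, 155 and 117 CPM in AD1 OE and at 139, 124, 129.9 and 127 CPM in Control. Col15a1 was at 93.3, 111, 111 and 101 CPM against 101, 101, 109 and 109 CPM. The groups overlapped for both, with log2 fold changes of 0.08 and -0.01.

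FACIT collagens coat fibrils and link them to other matrix. The 6 counted in this class held 6.55% of the collagen level, which leaves out the type IX chains, counted here with cartilage. Col14a1 was the highest, at 262, 276, 265 and 245 CPM in AD1 OE and at 251, 236, 253 and 249 CPM in Control, and had the least spread between libraries of any collagen, with a highest value 1.17 times the lowest. Col16a1 was at 168, 162, 176 and 161 CPM in AD1 OE and at 154, 136, 133 and 154 CPM in Control, without overlap, and its log2 fold change of 0.21 ± 0.05 (SE) was under the fold limit (edgeR adjusted p = 0.0409). Col12a1, found in tendon and fascia, had a log2 fold change of 0.23 (edgeR adjusted p = 0.166) in groups that overlapped through Control 4, which at 231 CPM stood above the other Control libraries at 163 to 191 CPM. Col22a1, a collagen of muscle-tendon junctions, had Control 4 highest as well, while Col19a1 and Col20a1 were each under 11 CPM with log2 fold changes within 0.04 of 0.

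The collagens known from cartilage were present at lower levels, 4.34% ± 0.223 (SD, n = 8) of the collagen level for 7 genes. Per kb of annotated exon Col9a2, a FACIT chain of type IX, was the highest at 16.7 CPM per kb, and its partner Col9a3 and Col11a1 each stood at 11.1. By the longest transcript Col11a1 came first, and Col9a2 and Col2a1 also stood above Col9a3. Col9a2 was at 57.4, 48.5, 63.9 and 47.9 CPM in AD1 OE and at 51.6, 46.9, 42.8 and 54.9 CPM in Control, and Col9a3 at 45.9, 43.1, 46.8 and 43.4 CPM against 41.8, 38.4, 40.3 and 42.1 CPM. Col9a2 overlapped between the groups, whereas the 4 AD1 OE values of Col9a3 were all higher, with a log2 fold change of 0.14 ± 0.05 (SE, edgeR adjusted p = 0.130). The third type IX chain, Col9a1, was at most 6.40 CPM, and per kb its ratio to Col9a2 was 0.056 in each group, so the 3 chains were not present in equal amounts.

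Col2a1, the main fibrillar collagen of cartilage, was at 87.5, 56.5, 76.7 and 81.2 CPM in AD1 OE and at 65.2, 84.3, 88.7 and 82.7 CPM in Control. The lowest libraries were AD1 OE 2 and Control 1, and the log2 fold change of -0.09 had a 95% interval of -0.35 to 0.18. The 10 cartilage markers were uneven in level. Matn4 was between 40.0 and 46.7 CPM and Cnmd between 28.0 and 35.3 CPM in every library. Matn1 was between 0.904 and 1.40 CPM, Comp at most 3.01 CPM, Matn3 at most 1.11 CPM and Epyc at most 0.727 CPM, and Ucma and Snorc were too low to be tested. Acan was between 35.7 and 57.8 CPM in Control 2, 3 and 4 and between 4.23 and 10.1 CPM in the other 5 libraries, and Hapln1 fell in AD1 OE (log2 fold change -0.87, edgeR adjusted p = 0.00139). Over all libraries neither order was that of Col2a1, but Hapln1 and Col2a1 had the same order within Control, though not within AD1 OE. The lowest libraries in Acan were Control 1 and AD1 OE 2, which were also the lowest in Col2a1. The sum of all 10 was between 89.4 and 108 CPM in AD1 OE and between 97.3 and 159 CPM in Control, and whether Col2a1 came from cartilage left at dissection was not tested.

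The type XI chains differed from each other. Col11a1 was at 149, 150.2, 153 and 155 CPM in AD1 OE and at 124, 125, 125 and 146 CPM in Control. The groups did not overlap, but Control 4 lay nearer to AD1 OE than to its own group, and the log2 fold change of 0.23 ± 0.05 (SE) was under the fold limit (edgeR adjusted p = 0.0192). Without the 3 libraries highest in bone markers the log2 fold change of Col11a1 was 0.27 (edgeR adjusted p = 0.0122), and with sex in the fit it was 0.17 (adjusted p = 0.113). Col11a2 was at 30.3, 24.2, 44.8 and 58.1 CPM in AD1 OE and at 28.1, 28.5, 28.3 and 48.4 CPM in Control. It was the most uneven collagen above 10 CPM, its highest library being 2.40 times its lowest, and the 3 high libraries were again AD1 OE 3, AD1 OE 4 and Control 4. Its log2 fold change went from 0.23 to -0.04 without them, and the part of bone RNA in it was not tested. Col10a1, made by the enlarged cartilage cells of growth plates, was at 3.01, 2.90, 6.39 and 3.96 CPM in AD1 OE and at 4.86, 6.04, 6.01 and 6.30 CPM in Control. AD1 OE 3 was the highest of all and the other AD1 OE libraries lay under every Control library. The log2 fold change of -0.53 was not called (edgeR adjusted p = 0.206), and without AD1 OE 3 it was -0.82 and passed the thresholds (adjusted p = 0.00402). Without the 3 libraries highest in bone markers it was -0.93 and did not (adjusted p = 0.00692).

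**Figure D5:**
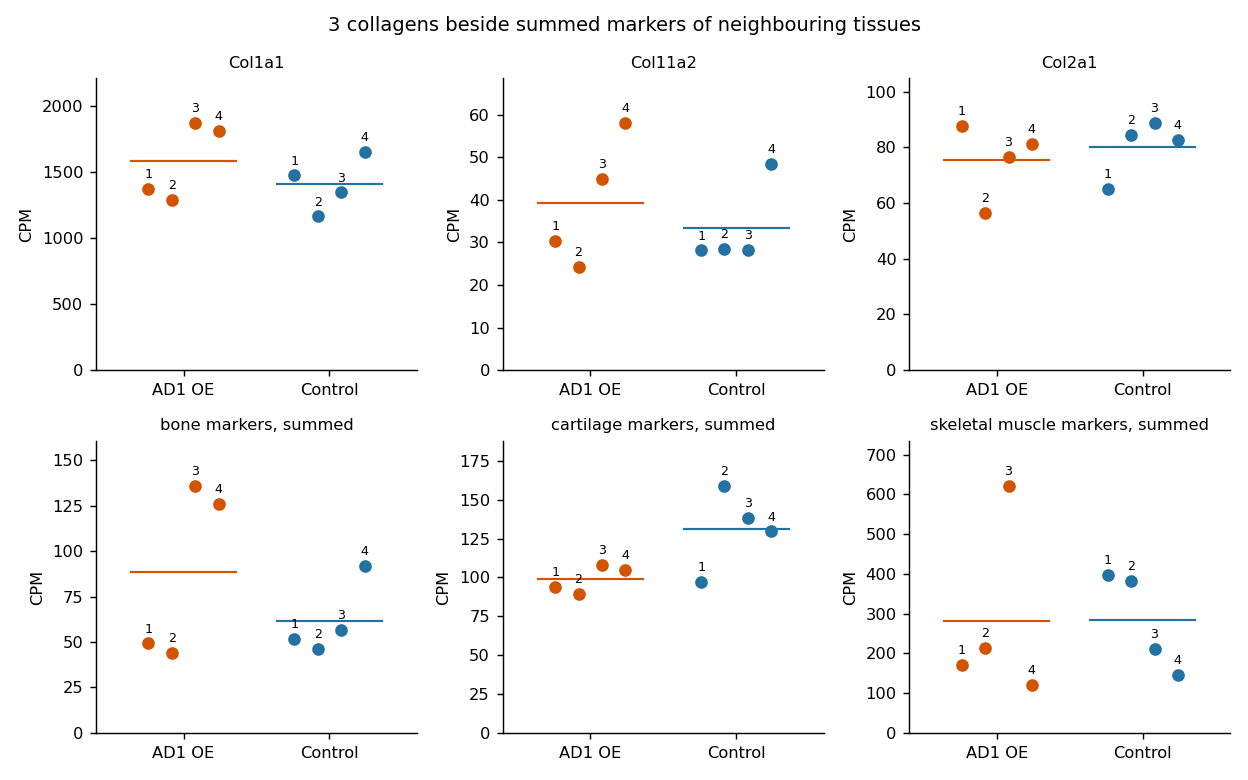
CPM (y axes, from 0) of Col1a1, Col11a2 and Col2a1 in each library (upper row) beside the summed CPM of 6 bone, 10 cartilage and 7 skeletal muscle markers (lower row), with replicate numbers above the points and group means as lines. AD1 OE 3, AD1 OE 4 and Control 4 are the highest libraries for Col1a1, Col11a2 and the bone markers, with bone sums of 136, 126 and 92.0 CPM, and Col2a1 does not share that order.

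The remaining network and anchoring collagens held 6.74% of the collagen level, with Col28a1 first. Col28a1 is known for its place around the glia of peripheral nerve and ganglia, and at 40.6 CPM per kb it was the seventh collagen of the ganglion. It was at 209.8, 202, 223 and 190.1 CPM in AD1 OE and at 189.5, 206, 192 and 179 CPM in Control. Col8a1, a network collagen of vessels and the cornea, was at 172, 199, 167 and 163 CPM in AD1 OE and at 159, 169, 151 and 181 CPM in Control. The groups overlapped for Col28a1, Col8a1, Col8a2, Col26a1 and Col7a1, the collagen of skin anchoring fibrils, and 0 of the 5 were called.

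Across the 43 tested collagens, non-overlapping groups with AD1 OE higher were found for 6, or 14.0%, beside 5.69% of all genes, and with AD1 OE lower for 3, or 6.98%, beside 7.26%. The 6 were Col5a2, Col6a3, Col9a3, Col11a1, Col16a1 and Col24a1, and the 3 were Col5a3, Col6a5 and Col25a1. Summed over each class, the groups overlapped in all 8 classes. As a share of raw counts, all collagens together took 1.06% to 1.17% in AD1 OE and 0.911% to 1.05% in Control, without overlap. In CPM their totals did overlap, AD1 OE 2 at 10544 CPM lying under Control 4 at 10592 CPM. The fibrillar sum was 6592 ± 374 CPM against 5879 ± 489 CPM in Control (SD, n = 4 each), a log2 ratio of 0.17, and the FACIT sum 742 ± 19.7 CPM against 667 ± 43.8 CPM, a log2 ratio of 0.16. The coefficient of variation within a group had a median of 9.40% and exceeded the trend for genes of like abundance for 35 of 43 collagens. The coefficient includes counting noise and the trend leaves it out, which favours such an excess. No share over all tested genes stands beside this count, so it cannot be read as a trait of collagens.

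Collagen chains are hydroxylated, glycosylated, folded with the chaperone Serpinh1, trimmed, cross-linked, bound and broken down by other proteins, and 74 genes with these roles were listed. Of the 73 tested, 3 were called, or 4.11%, beside 2.57% of all tested genes. Of these, 2 were higher, beside 0.784% of all tested genes, and 1 was lower, beside 1.78%. Colgalt2, a galactosyltransferase that adds sugar to collagen hydroxylysine, fell to 34.0 ± 2.46 CPM from the 48.1 ± 2.74 CPM of Control (SD, n = 4 each), with 34.8, 33.0, 31.1 and 36.9 CPM against 44.1, 49.6, 49.9 and 48.9 CPM and a log2 fold change of -0.50 ± 0.06 (SE, edgeR adjusted p = 3.24e-04). Pcolce2, an enhancer of propeptide removal, was at 15.5, 15.1, 17.8 and 14.4 CPM in AD1 OE and at 11.0, 12.1, 10.6 and 11.1 CPM in Control. It rose from 11.2 ± 0.657 to 15.7 ± 1.47 CPM, a log2 fold change of 0.48 (edgeR adjusted p = 0.00229). Creb3l1, a transcription factor known to drive type I collagen genes in bone, was at 42.9, 42.9, 44.6 and 43.0 CPM against 37.1, 34.6, 35.8 and 37.9 CPM. It rose from 36.4 ± 1.44 to 43.3 ± 0.838 CPM, a log2 fold change of 0.25 (edgeR adjusted p = 0.00465), and passed both thresholds by little. None of these groups overlapped, and without the 3 libraries highest in bone markers 1 of the 73 was called. That gene was lower in AD1 OE, so the calls of Pcolce2 and Creb3l1 were both lost. Both were also lost with the replicate number as a block. The same held without any one of AD1 OE 1 or 2 or Control 1, 3 or 4.

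The abundant members of the list did not pass the test. Sparc and Serpinh1, the highest per kb of the folding and export genes, had log2 fold changes of 0.02 and 0.03, and P4hb and Colgalt1 of the modifying enzymes -0.01 and 0.10. The main cross-linking enzyme Lox had 0.16 with non-overlapping groups (edgeR adjusted p = 0.0495). Groups did not overlap either for Lama2 at 0.17 (adjusted p = 0.0468) and the scarcer Adamts14 at 0.41 (adjusted p = 0.0327), both uncalled and higher in AD1 OE. All 11 basement membrane partners, laminin chains, nidogens, perlecan (Hspg2) and agrin, had positive log2 fold changes with a median of 0.10 and 0 called, beside 50.5% positive and a median of 0.00 over all tested genes, Nid1 at 0.10 and Lamc1 at 0.13 being the highest per kb. Ogn and Dcn, proteoglycans that coat fibrils, had 0.07 and -0.15, Itgb1 of the collagen receptors 0.02 and Timp2 of the breakdown genes -0.10. Timp2 went against most of its sublist, in which 7 of 10 log2 fold changes were positive, with a median of 0.12 and 0 called. Over the 73 genes the median log2 fold change was 0.08 and 55 were positive, or 75.3%, beside the same 50.5% of all genes. The groups did not overlap for 7 of the 73 with AD1 OE higher, beside 5.69% of all genes. With AD1 OE lower this was so for 1, beside 7.26%.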

How the data were processed

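Bulk RNA-seq of E18.5 DRG was analysed for 4 AD1 OE and 4 Control libraries, grouped by the sample titles. The authors deposited 1 file of raw gene counts per library, and the submitters' processing notes name bcl2fastq 2.20.0.422, STAR 2.7.8a, featureCounts 2.0.1 and build GRCm39. The strand setting of the counting is not given in the sources used here, so reads of genes that overlap on opposite strands (Col4a1 with Col4a2 over 22 bp, and Col4a3, Col5a1 and Col9a3 with others) cannot be told apart. All 55414 IDs name genes, 52081 matched a symbol, and lengths came from GENCODE M21 (GRCm38), which can differ from the annotation counted.

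Counts were filtered with filterByExpr, scaled by TMM and tested with edgeR 4.0.16 (glmQLFit, glmQLFTest, genotype as the only term) in R 4.3.3. P-values were adjusted by Benjamini-Hochberg over all 17721 tested genes, and calls needed that adjusted p to be below 0.005 with a log2 fold change beyond 0.25 in either direction. The fit was tested on simulated data. DESeq2 1.42.0, limma 3.58.1 (voom), other scalings and filters, a sex score (Y-linked genes over Xist), the replicate number as a block, each library left out, and the longest transcript as the length were the alternatives. Leaving out the 3 libraries highest in bone markers, and using no composition scaling in the tests, were chosen after seeing the data. Values in each library are given for the 2 highest collagens per kb of each class, for each called collagen and, on the pathway list, for each called gene. Otherwise up to 2 of the highest per sublist are named, and any other gene was picked after its values were seen. The members, the lists of pathway genes and of cell markers, and the tests were chosen with earlier results of these data known. Replicates of a group correlated at 0.988 to 0.995, and their counts differed by more than sampling noise, with 4.34 to 12.2 chi-square per degree of freedom.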

Additional observations from a re-analysis of the deposited data

Results flagged for a closer look

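In 106 groups of 4 libraries, 10 held a library whose distance from the nearest other exceeded the 95% critical value of Dixon's test, where chance gives about 1 in 20. In Control 3, Col4a1 was at 807 CPM beside 873 to 885 CPM in the other Control libraries, Col4a2 at 398 CPM beside 436 to 438 CPM, and the summed type IV collagens at 1267 CPM beside 1372 to 1378 CPM. Control 4 was apart for Col11a1 (146 CPM beside 124 to 125 CPM), Col11a2 (48.4 CPM beside 28.1 to 28.5 CPM) and Col22a1 (80.9 CPM beside 66.3 to 68.7 CPM). Col5a2 was low in Control 2, at 278 CPM beside 318 to 322 CPM. In AD1 OE, Col22a1 was low in replicate 2 (66.1 CPM beside 78.0 to 80.3 CPM), Col20a1 low in replicate 1 (3.17 CPM beside 4.44 to 4.68 CPM) and Col6a4 high in replicate 4 (2.01 CPM beside 0.668 to 0.859 CPM).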

How the results depend on the processing

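The number of collagens called was 3, and it was 3 or within 1.5 times of it under other scalings, limma-voom, a minimum of 1 CPM and no composition scaling. It was 5 with DESeq2, 6 without a filter on low counts, 7 at an adjusted p under 0.05, 1 with sex in the fit, and 1 to 4 with each library left out in turn. Called pathway genes, 3 in the report, were 6 at an adjusted p under 0.05, 1 without the 3 libraries highest in bone markers and 1 to 2 with each library left out. The 455 genes called overall became 747 without a filter, 1161 at an adjusted p under 0.05, 242 without the 3 bone-rich libraries and 289 to 420 with each library left out. Those smaller fits had fewer samples, and the causes of the other shifts were not tested. With the replicate number as a block, 3 collagens (Col24a1, Col25a1 and Col5a3) and 1 pathway gene were called. The numbers shared by the groups come from the titles and gave deviation correlations of -0.0099, -0.054, -0.035 and 0.313 for replicates 1 to 4. Only AD1 OE 4 matched the Control library of its own number best. Whether the numbers mark pairs cannot be told from these values.

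By the longest transcript, the shares of the collagen level were 59.8% fibrillar, 11.4% type IV, 9.01% type VI, 5.43% FACIT, 4.11% cartilage, 2.45% for Col15a1 and Col18a1, and 0.644% membrane-bound, which follows from the shorter lengths used.

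A set of 9 collagens that were not called changed sign around 0. With sex in the fit the log2 fold change was 0.020 for Col4a2, 0.15 for Col6a4, -0.032 for Col19a1, 0.10 for Col20a1 and 0.061 for Col26a1. Without composition scaling it was 0.0060 for Col4a2, 0.0036 for Col15a1, 0.013 for Col20a1 and 0.0079 for Col26a1, and with upper-quartile scaling 0.00051 for Col20a1. Without the 3 bone-rich libraries it was 0.027 for Col4a2, -0.036 for Col11a2 and 0.0011 for Col26a1. With each library left out, it ranged from -0.17 to 0.029 for Col2a1, -0.017 to 0.11 for Col4a1, -0.049 to 0.050 for Col4a2, -0.49 to 0.32 for Col6a4, -0.012 to 0.48 for Col11a2, -0.047 to 0.036 for Col15a1, -0.0057 to 0.096 for Col19a1, -0.069 to 0.12 for Col20a1 and -0.076 to 0.068 for Col26a1.

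Collagens under about 10 CPM rested on few reads, with Col17a1 untested, and levels per kb depend on the annotated length. With 4 libraries a group and unequal sexes, differences of the size seen for most collagens were not separated from the spread.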

Other observations

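AD1 OE 3 was the highest of the 4 AD1 OE libraries for 24 of the 44 collagens, and Control 4 the highest of the 4 Control libraries for 22. No share over all genes stands beside these counts or the counts of lowest libraries below. AD1 OE 3 also had the highest sums of bone markers (136 CPM), skeletal muscle markers (622 CPM), endothelial markers (319 CPM) and sensory neuron markers (7324 CPM). Control 4 had the highest bone sum of its group (92.0 CPM) but its lowest skeletal muscle sum (146 CPM). AD1 OE 2 stood apart in red blood cell genes, whose 6 markers summed to 804 CPM beside 223 to 404 CPM in the other 7 libraries. Among the 43 tested collagens, AD1 OE 2 was the lowest of all libraries for 9, as was Control 2, and Control 1 and Control 3 were for 8 each. Perineurial and mural cell markers, 5 and 6 genes with 0 called, summed to between 214 and 231 CPM and between 263 and 297 CPM over the 8 libraries.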
